A study of Mus musculus with 4 samples.

Results

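Conventional dendritic cells of the mouse lung were described here as 131 cells out of 28153 that passed the quality limits in 4 single-cell RNA libraries. Members were chosen by measured UMI counts of marker genes. A cell was a member when it held at least 1 UMI (a unique molecular identifier, which marks 1 captured RNA molecule) in 2 or more of the 6 genes Flt3, Xcr1, Clec9a, Cd209a, Zbtb46 and Fscn1, at least 1 UMI of the MHC class II gene H2-Aa, and none of Cd79a, Cd3e, C1qa, Krt79 and Siglech, which mark B cells, T cells, macrophages, alveolar macrophages and plasmacytoid dendritic cells. The libraries came from whole lungs of wild type C57BL/6 male mice, 1 library each at 10 days (NB), 2 months (2 M), 10 months (10 M) and 18 months (18 M) of age. The lungs were digested with collagenase D and DNase1, dead cells were removed, and no sort for dendritic cells was made. No source says how many animals went into a library, so differences between ages have no replicate. Where 4 values follow each other they run from NB to 18 M.

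Conventional dendritic cells take up antigen in tissues, carry it to lymph nodes and show it to T cells on MHC molecules. They need the receptor tyrosine kinase Flt3 and carry the transcription factor Zbtb46. Type 1 cells bear the chemokine receptor Xcr1 and the dead-cell receptor Clec9a and are known for cross-presentation to CD8 T cells, whereas the lectin Cd209a belongs to type 2 cells, which mostly serve CD4 T cells. When either type matures it makes the actin-bundling protein fascin (Fscn1) and the lymph node homing receptor Ccr7.

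The NB library gave 42 members, the 2 M library 14, the 10 M library 27 and the library labelled 18 M 48. The share of the cells kept was 0.659% for NB (95% Clopper-Pearson interval 0.475 to 0.889), 0.253% for 2 M (0.138 to 0.424), 0.343% for 10 M (0.226 to 0.499) and 0.573% for 18 M (0.423 to 0.759). These intervals cover counting error only. The NB interval lay above the 2 M interval, and every other pair of intervals overlapped. The members held 2 of the 6 genes in 77 cells, 3 in 42 cells, 4 in 11 cells and 5 in 1 cell. Just outside the rule stood 197 cells with only 1 of the 6 genes and 78 cells with enough of them but no H2-Aa UMI. A further 10 barcodes met the rule but lay above the upper limits on genes or UMIs.

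**Figure D1:**
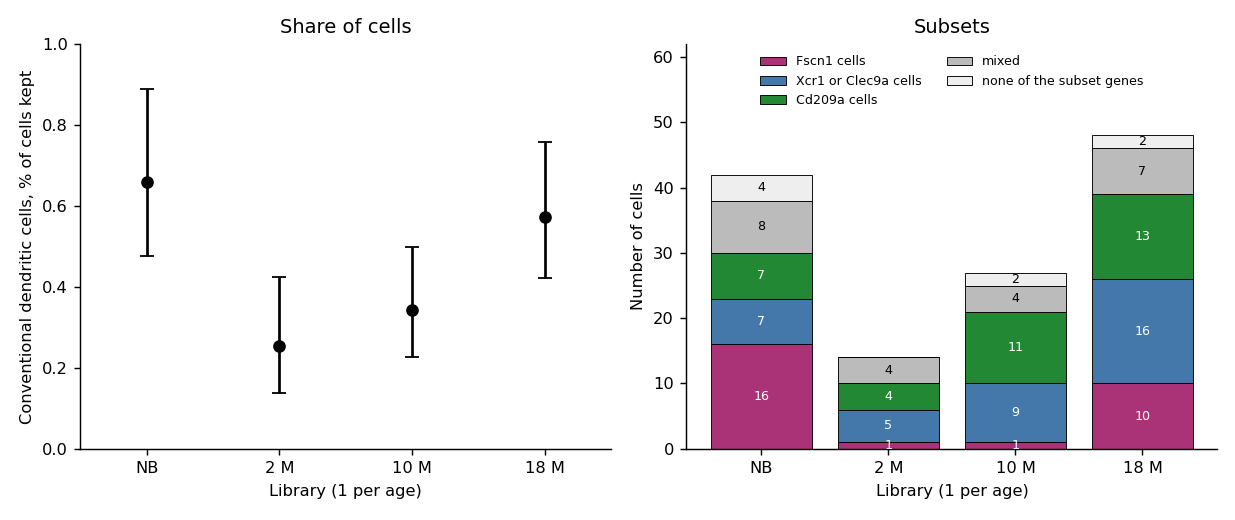
Members per library. The left panel plots the conventional dendritic cell share of cells kept (percent) with Clopper-Pearson 95% intervals, from 0.253% in 2 M to 0.659% in NB, and the right panel stacks the number of members by subset: Fscn1 cells number 16 in NB and 10 in 18 M but 1 each in 2 M and 10 M.

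The members are described by genes of the rule, and the label was checked against genes beyond it. Among the 131 members, 83 held a UMI of Flt3, 85 of Zbtb46, 49 of Xcr1, 24 of Clec9a, 54 of Cd209a and 34 of Fscn1. The share of members with Flt3 was 63.4%, against 0.165% of T cells and 3.09% of B cells in the same libraries. Members were chosen by these genes, so the counts and the Flt3 share follow from the rule and do not test the label. Genes the rule did not use were also found more often in members. Ccl22, a chemokine of activated dendritic cells, had a UMI in 48.1% of members, 0.47% of T cells, 0.349% of B cells and 6.91% of monocytes. Cst3, the cystatin that is abundant in dendritic cells, had a UMI in 97.7% of members, against 44.6% of T cells and 45.9% of B cells. These Cst3 shares set members against lymphocytes only, not against other myeloid cells. In the edgeR comparison given further below, the Cst3 level was called higher in members than in monocytes and in C1q macrophages. Members had a median of 12418 UMIs and 2862 genes, while all cells kept had a median of 4152 UMIs, so a share of members with a UMI is raised by depth. H2-Aa ranged from 1 to 263 UMIs per member with a median of 77, and 12 members held fewer than 5.

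Some members and 1 library stood apart. In the library labelled 18 M, 22 of 48 members held UMIs of Xist, the RNA of the inactive X chromosome, 24 held UMIs of Y-linked genes and 4 held both, whereas no member of another library held Xist. This goes against the label, which says male, and the counts of calls and of list genes that rest on that library were repeated without the 22 Xist members. In all, 10 members (9 of them Fscn1 cells) held 8 to 100 UMIs of vascular genes or 37 to 838 UMIs of fibroblast genes at H2-Aa counts of 1 to 82, and the same counts were also repeated without these 10. Summed over the members of each library, 6 or 7 of the 7 vascular markers were present with 55, 64, 100 and 178 UMIs from NB to 18 M. The fibroblast markers, of which 5, 1, 3 and 5 of 5 were present, gave 409, 3, 6 and 991 UMIs. Alveolar Sftpc had UMIs in 44 of 48 members of 18 M and haemoglobin Hbb-bs in all 48, while single cells held most of them: 1998 of the 3658 Sftpc UMIs in 18 M were in 1 Cd209a cell, and 3961 of the 4048 Hbb-bs UMIs in NB were in 1 cell. No barcode was shared between members of different libraries, and no doublet caller was run.

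By the same genes the members were split into exclusive subsets. There were 28 Fscn1 cells (16, 1, 1 and 10 by library), 37 Xcr1 or Clec9a cells (7, 5, 9 and 16), 35 Cd209a cells (7, 4, 11 and 13), 23 cells with genes of more than 1 subset (8, 4, 4 and 7) and 8 cells with Flt3 and Zbtb46 only (4, 0, 2 and 2). Fscn1 cells were 38.1% of NB members (95% interval 23.6 to 54.4), 7.14% of 2 M members (0.181 to 33.9), 3.70% of 10 M members (0.0937 to 19.0) and 20.8% of 18 M members (10.5 to 35.0). The Xcr1 or Clec9a share was 16.7%, 35.7%, 33.3% and 33.3%, and the Cd209a share was 16.7%, 28.6%, 40.7% and 27.1%. All of these shares follow from genes of the rule and depend on depth. Without the 10 members that carried vascular or fibroblast UMIs, 13 Fscn1 cells remained in NB, 6 in 18 M and none in 2 M or 10 M. Among the 10 Fscn1 cells of 18 M the median was 2 H2-Aa UMIs and 6 cells held fewer than 5.

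To ask what else separated the subsets, UMIs were summed per library and subset, sums of fewer than 3 cells were left out, and the sums were compared with edgeR's quasi-likelihood test with the library as a block. Fscn1 cells therefore entered with 2 sums (NB and 18 M) and the other subsets with 4. Levels are given as CPM, the UMIs of a gene scaled to 1000000 UMIs of the summed cells, and differences as log2 fold changes with their standard error. The genes of the rule were taken out before the Benjamini-Hochberg adjustment over 2584 genes, and a gene was called at an adjusted p under 0.05. With the library as a block, a subset difference is tested against how much it varies over the libraries. The libraries differ in age, so that spread includes any change of the difference with age.

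In Fscn1 cells against Cd209a cells, 49 genes were higher and 44 lower, 1.9% and 1.7% of the genes tested. Of the 34 genes of the maturation list, 26 were tested, 8 rose (Anxa3, Cacnb3, Ccr7, Cd200, Il12b, Relb, Serpinb6b and Serpinb9) and none fell, with a median log2 difference of 0.98 against 0.04 over all genes. Of the type 2 list, 12 of 19 genes were tested and Ccr2, Cd14 and Mgl2 fell, while of the type 1 list 8 of 20 were tested and edgeR and DESeq2 called none (3 at an unadjusted p under 0.05). Without the 10 members with vascular or fibroblast UMIs the maturation list had 10 of 27 genes higher and a median of 1.70, and 74 genes were called in all. Against Xcr1 or Clec9a cells, Fscn1 cells had 49 genes higher and 29 lower, 1.9% and 1.12%, and 10 maturation genes rose (median 1.32, or 2.01 without the 10 members).

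Ccr7, the receptor that takes mature dendritic cells to the lymph node, stood at 2396 CPM in NB and 1498 CPM in 18 M in Fscn1 cells. Xcr1 or Clec9a cells had 652, 523, 447 and 381 CPM, and Cd209a cells 783, 332, 941 and 597 CPM, from NB to 18 M. Both Fscn1 sums lay above every sum of the other subsets. The log2 difference was 1.53 ± 0.33 over Cd209a cells (edgeR adjusted p = 0.0314) and 1.89 ± 0.33 over Xcr1 or Clec9a cells (edgeR adjusted p = 0.0174). Every subset sum held Ccr7 UMIs.

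Cd200, a membrane protein that restrains myeloid cells through its receptor, set the Fscn1 cells apart without overlap. It had 526 CPM in NB and 382 CPM in 18 M in Fscn1 cells, against 8.58, 35.7, 0 and 4.76 CPM in Xcr1 or Clec9a cells and 0, 0, 0 and 7.29 CPM in Cd209a cells. With 146 UMIs in Fscn1 cells and 1 UMI in Cd209a cells the ratio was 179 (95% interval of the counts 31.7 to 7129; edgeR adjusted p = 0.00178), and over Xcr1 or Clec9a cells the log2 difference was 5.64 ± 0.62. Cacnb3, a calcium channel subunit, had 175 and 396 CPM in Fscn1 cells of NB and 18 M. It had at most 17.2 CPM in any Xcr1 or Clec9a sum and 7.29 CPM in any Cd209a sum, a ratio of 106 over Cd209a cells (18.5 to 4219; edgeR adjusted p = 0.0188). In the 18 M Fscn1 cells 32 of the 53 Cd200 UMIs were in 1 cell, and without the members with vascular or fibroblast UMIs 14 UMIs (216 CPM) remained there. Cd200 kept its call over Cd209a cells in that repeat. Without the Xist members too few Cd200 UMIs remained in the 18 M Fscn1 and Cd209a cells for a ratio there.

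Protease inhibitors and a transcription factor of maturation also rose over Cd209a cells. Over Xcr1 or Clec9a cells edgeR called neither inhibitor, Serpinb6b or Serpinb9. Serpinb6b had 509 and 396 CPM in Fscn1 cells of NB and 18 M, 103 to 134 CPM in the 4 Xcr1 or Clec9a sums and 0 to 32.2 CPM in the 4 Cd209a sums, which did not overlap. Its log2 difference over Cd209a cells was 4.60 ± 0.59 (edgeR adjusted p = 0.00296). Serpinb9, the inhibitor of granzyme B, had 616 and 482 CPM in Fscn1 cells, 224 to 283 CPM in Xcr1 or Clec9a cells and 0 to 137 CPM in Cd209a cells, a log2 difference of 2.996 ± 0.58 over Cd209a cells (edgeR adjusted p = 0.021). Relb, the NF-kappa B subunit that dendritic cell maturation needs, had 311 and 130 CPM, against 51.5 to 119 CPM and 21.9 to 72.4 CPM. It rose by 2.48 ± 0.48 over Cd209a cells (edgeR adjusted p = 0.021), and over Xcr1 or Clec9a cells it missed the threshold at 1.69 ± 0.45 (edgeR adjusted p = 0.0734).

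Over Xcr1 or Clec9a cells the Fscn1 cells also rose in Il4i1, Samsn1, Tmem123, Stat4, Socs2, Anxa3 and Ccl17. Il4i1, a secreted amino acid oxidase, had 1266 and 202 CPM in Fscn1 cells of NB and 18 M, against 223, 11.9, 8.94 and 4.76 CPM in Xcr1 or Clec9a cells, so the groups overlapped (3.19 ± 0.73, edgeR adjusted p = 0.0441). Samsn1, an adaptor protein, had 1526 and 713 CPM, against 313 to 446 CPM, without overlap (1.60 ± 0.30, edgeR adjusted p = 0.0242). Fabp5, a fatty acid binding protein outside the maturation list, had 1407 and 641 CPM, against at most 57.1 CPM in Xcr1 or Clec9a cells and 168 CPM in Cd209a cells. It rose by 4.23 ± 0.62 over the Xcr1 or Clec9a cells and by 3.27 ± 0.59 over the Cd209a cells (edgeR adjusted p = 0.00663 and 0.016).

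Costimulatory genes did not separate the subsets in the test. Cd83 differed by -0.67 ± 0.35 between Fscn1 and Cd209a cells (edgeR adjusted p = 0.352), Cd86 by -0.44 (adjusted p = 0.701) and Cd40 by 0.51 (adjusted p = 0.635). These values include the members with vascular or fibroblast UMIs. Without them the ratio of Fscn1 to Cd209a cells in 18 M moved from 0.485 to 0.959 for Cd83. It moved from 0.322 to 0.640 for Cd86 and from 2.67 to 4.02 for Cd40. Ccl22 had 232 CPM in NB and 3241 CPM in 18 M in Fscn1 cells, against 591, 104, 434 and 342 CPM in Cd209a cells. The NB sum lay within the Cd209a range and the 18 M sum far above it, and the difference of 1.51 ± 1.07 missed the threshold (edgeR adjusted p = 0.515). None of the 9 class II genes tested was called by edgeR or DESeq2 in either Fscn1 contrast, with 2 at an unadjusted p under 0.05 in each; the rule used H2-Aa.

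**Figure D2:**
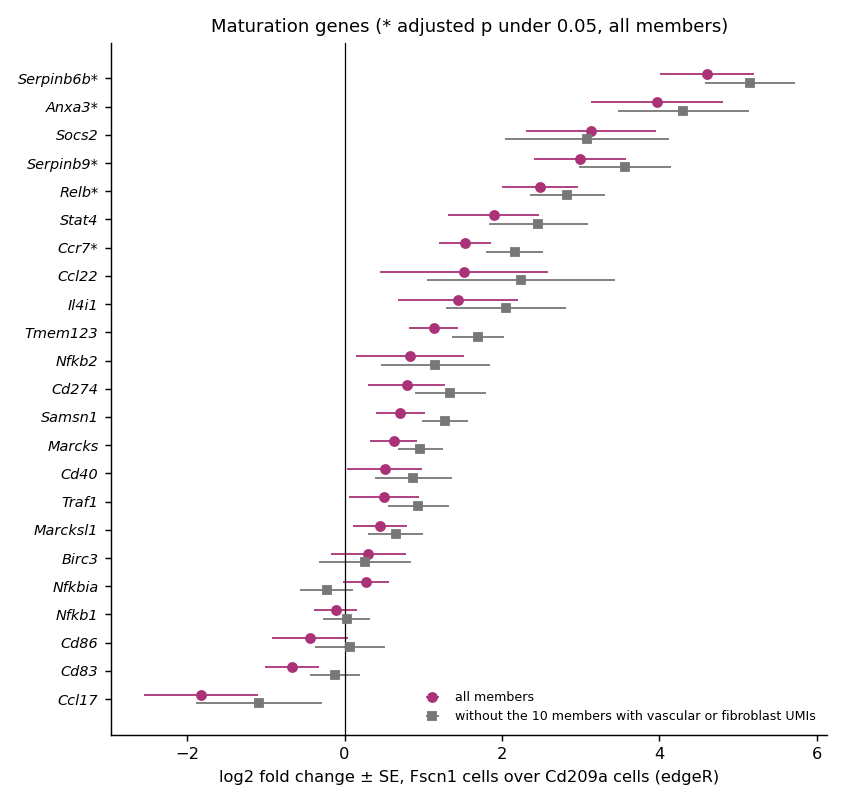
Maturation genes in Fscn1 over Cd209a cells. The horizontal axis is the log2 fold change with its standard error, circles use all members and squares leave out the 10 members with vascular or fibroblast UMIs, and an asterisk marks a called gene; genes with 3 or fewer UMIs in a subset (Il12b, Cd200 and Cacnb3) are not drawn.

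Il1b, Alox5ap and Gm2a stood lower in Fscn1 cells. Il1b, the inflammatory cytokine, had 1272 and 555 CPM in Fscn1 cells of NB and 18 M, against 5779, 4384, 2548 and 4988 CPM in Xcr1 or Clec9a cells and 6560, 4748, 3908 and 3992 CPM in Cd209a cells. Both Fscn1 sums lay below all others, by 2.67 ± 0.29 on the log2 scale under Cd209a cells (edgeR adjusted p = 0.00178). Alox5ap, which hands arachidonic acid to 5-lipoxygenase, had 50.9 and 57.6 CPM, against 333 to 532 CPM and 539 to 706 CPM, and Gm2a, a lysosomal lipid transfer protein, had 79.1 and 28.8 CPM, against 394 to 537 CPM and 507 to 746 CPM. Their log2 differences to Cd209a cells were -3.55 ± 0.36 (edgeR adjusted p = 0.00178) and -3.39 ± 0.42 (edgeR adjusted p = 0.00275).

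Of the type 2 list, 3 genes fell in Fscn1 cells against Cd209a cells. Ccr2, the monocyte chemokine receptor that type 2 cells also carry, had 0 and 7.20 CPM in Fscn1 cells of NB and 18 M, against 321, 394, 241 and 204 CPM in Cd209a cells. With 1 UMI against 102 the Cd209a level was 83.1 times higher (14.6 to 3313; edgeR adjusted p = 0.0229). Mgl2, the lectin CD301b, had 0 and 7.20 CPM, against 205, 892, 233 and 503 CPM, a ratio of 128 in favour of Cd209a cells (22.6 to 5082; edgeR adjusted p = 0.0384, or 0.0679 without the 10 members and 0.136 without 18 M). In Cd209a cells all 16 Mgl2 UMIs of NB and all 43 of 2 M came from 1 cell each, and 24 of the 29 of 10 M from 1 cell, while 7 of 13 cells held it in 18 M. Cd14, the lipopolysaccharide co-receptor, had 107 and 43.2 CPM in Fscn1 cells, against 1938, 202, 152 and 324 CPM in Xcr1 or Clec9a cells and 2157, 2529, 941 and 328 CPM in Cd209a cells (-4.59 ± 0.94 to Cd209a cells, edgeR adjusted p = 0.0256, or 0.0646 without 10 M), with 141 of the 168 Cd14 UMIs of the NB Cd209a cells in 1 cell. Areg, an epidermal growth factor receptor ligand, had 62.2 and 7.20 CPM in Fscn1 cells, against 539, 581, 201 and 656 CPM in Cd209a cells, without overlap (-4.64 ± 0.88, edgeR adjusted p = 0.0195; 0.06 without 10 M). Cd7, Emilin2, Pou2f2 and Oasl1 completed the 8 lowest genes by the naming rule, with Cd7 at 17.0 and 0 CPM, against 514, 62.2, 201 and 29.1 CPM, and Emilin2 at 5.65 and 7.20 CPM, against 193, 456, 177 and 109 CPM. Of these 4, Cd7 and Emilin2 lost the call without NB, and Pou2f2 and Oasl1 without NB and without 10 M.

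Some called genes belong to other cell types. Tm4sf1, Ctla2a, Vcam1, Sparc and Cnn3, which blood vessel or stromal cells make, were higher in Fscn1 cells. Each of these 5 had at most 3 UMIs in Cd209a cells, and each fell below the count filter without the 10 members. The 4 immediate early genes that rose over Cd209a cells (Egr1, Ier3, Jun and Klf6) numbered 0 without those members. Among the lower genes were Sftpa1, Sftpb, Cxcl15 and Cbr2, which lung epithelium makes. Of the 151 Sftpa1 UMIs in the 18 M Cd209a cells 150 were in 1 cell, as were all 70 of Sftpb, all 75 of Cxcl15 and 62 of the 65 of Cbr2, and none of the 13 Cd209a cells of 18 M was among the 10 members. All 4 calls were lost without 18 M.

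Xcr1 or Clec9a cells differed from Cd209a cells in 10 genes: Ifi205, Cst3, Cd81, Tssc4, Slc25a20, Il12b, Ereg and Cxcl1 were higher, 0.31% of genes tested, and Ccl17 and Ifit1 lower, 0.0774%. Of the 132 Ereg UMIs in these cells 81 came from 1 cell of 18 M, and 92 of the 95 Cxcl1 UMIs of 18 M came from 1 cell. No gene of the type 1 list (8 of 20 tested, median 1.69) or of the type 2 list (12 of 19 tested, median -1.62) was called by edgeR, where the median over all genes was 0.01. An unadjusted p under 0.05 was held by 5 and 7 of them, and DESeq2 called 0 and 3. Over all genes 254 had such an unadjusted p, and DESeq2 called 12. None of the 10 calls was kept in the fit without the library as a block, and 4 were kept without 10 M. Cst3 had 10314, 16017, 9924 and 22087 CPM in Xcr1 or Clec9a cells, against 4839, 5059, 2782 and 6411 CPM in Cd209a cells. Each Xcr1 or Clec9a sum was above every Cd209a sum (1.59 ± 0.23, edgeR adjusted p = 0.0135).

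Ifi205, a member of the interferon-inducible Ifi200 family whose copies are alike enough to share reads, had 180, 357, 26.8 and 386 CPM in Xcr1 or Clec9a cells, against 12.8, 20.7, 0 and 7.29 CPM in Cd209a cells. The ratio was 33.4 (11.2 to 164; edgeR adjusted p = 0.00529), and Fscn1 cells had no Ifi205 UMI, which made them at least 27.2-fold lower than Xcr1 or Clec9a cells. The tetraspanin Cd81 had 197, 380, 125 and 638 CPM, against 0, 41.5, 32.2 and 14.6 CPM, without overlap (3.88 ± 0.58, edgeR adjusted p = 0.0135). Tssc4, a spliceosome assembly factor, had 93 UMIs, against 0 in Cd209a cells, at least 23.0-fold higher (edgeR adjusted p = 0.0135). Slc25a20, the mitochondrial carnitine carrier, had 266, 273, 224 and 738 CPM, against 103, 62.2, 80.4 and 80.1 CPM, also without overlap (2.14 ± 0.38, edgeR adjusted p = 0.0418, or 0.058 without the 10 members with vascular or fibroblast UMIs). Irf8, the transcription factor of type 1 cells, had 68.6, 35.7, 188 and 195 CPM, against 89.9, 0, 0 and 43.7 CPM in Cd209a cells, which overlapped (2.08 ± 0.72, edgeR adjusted p = 0.337). Ppt1, a lysosomal thioesterase of type 1 cells, had 103, 154, 71.5 and 271 CPM, against 12.8, 0, 24.1 and 0 CPM, without overlap but short of the threshold (3.73 ± 0.79, edgeR adjusted p = 0.0883).

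Several called genes had most of their UMIs in 1 or a few cells. Il12b, the p40 subunit of interleukin-12, had 435 and 187 CPM in Fscn1 cells of NB and 18 M and 1218, 59.4, 0 and 366 CPM in Xcr1 or Clec9a cells, against no UMI in the 35 Cd209a cells. This made the Fscn1 cells at least 42.2-fold higher (edgeR adjusted p = 0.0056, DESeq2 adjusted p = 0.57) and the Xcr1 or Clec9a cells at least 55.4-fold higher (edgeR adjusted p = 0.00529, DESeq2 adjusted p = 0.36). All 142 UMIs of the NB Xcr1 or Clec9a cells came from 1 cell, and 51 of the 77 UMIs of the NB Fscn1 cells from another. Ccl17, the Ccr4 ligand, had 180, 0, 225 and 1020 CPM in Cd209a cells, while Xcr1 or Clec9a cells held 1 UMI and Fscn1 cells had 0 CPM in NB and 540 CPM in 18 M. Cd209a cells were 245 times higher than Xcr1 or Clec9a cells (43.5 to 9744; edgeR adjusted p = 0.0135, DESeq2 adjusted p = 0.76), although the 2 M library had none in either subset. The 14 Ccl17 UMIs of the NB Cd209a cells were in 1 cell, as were 23 of the 28 of 10 M. The Fscn1 over Xcr1 or Clec9a call for Ccl17 was lost without 10 M (edgeR adjusted p = 0.115) and without 18 M. Ifit1, an interferon-induced gene, had 68.6, 0, 17.9 and 0 CPM in Xcr1 or Clec9a cells, against 1348, 0, 491 and 36.4 CPM in Cd209a cells (-4.41 ± 0.46, edgeR adjusted p = 0.00529), and no UMI in Fscn1 cells. All 105 Ifit1 UMIs of the NB Cd209a cells and 46 of the 61 of 10 M were in 1 cell each. Apol7c, an apolipoprotein L family member, had 452 and 50.4 CPM in Fscn1 cells and no UMI in Cd209a cells, at least 35.6-fold higher (edgeR adjusted p = 0.02, DESeq2 adjusted p = 0.95). All 80 Apol7c UMIs of the NB Fscn1 cells came from 1 cell, of 87 in both libraries, and the call was lost without NB.

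The 250 bases before the start of 5 genes called between the subsets are shown because each carries 1 of the motifs searched, and are taken from RefSeq on GRCm38.p6, 5′ to 3′ on the gene's strand. Capitals mark the interferon-stimulated response element core (GAAA, any 2 bases, GAAA) in Serpinb9, Apol7c (where a pair overlaps) and Ifi205, and the PU.1 core GAGGAA in Il12b and Ccl17, read on both strands. Serpinb9 lies at chr13:33004291-33004540 on the plus strand, Apol7c at chr15:77533316-77533565 on the minus strand, Ifi205 at chr1:174031756-174032005 on the minus strand, Il12b at chr11:44399813-44400062 on the plus strand and Ccl17 at chr8:94810203-94810452 on the plus strand.
Serpinb9: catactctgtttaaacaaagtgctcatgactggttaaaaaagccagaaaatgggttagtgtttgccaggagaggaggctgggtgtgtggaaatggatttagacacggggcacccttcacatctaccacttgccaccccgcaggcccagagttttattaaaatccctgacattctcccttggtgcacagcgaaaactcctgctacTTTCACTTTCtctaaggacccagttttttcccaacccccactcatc
Apol7c: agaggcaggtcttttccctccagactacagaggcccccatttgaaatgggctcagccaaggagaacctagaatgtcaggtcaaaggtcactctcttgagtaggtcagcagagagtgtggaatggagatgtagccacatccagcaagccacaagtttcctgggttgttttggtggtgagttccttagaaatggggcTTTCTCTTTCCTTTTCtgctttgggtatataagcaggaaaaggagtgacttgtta
Ifi205: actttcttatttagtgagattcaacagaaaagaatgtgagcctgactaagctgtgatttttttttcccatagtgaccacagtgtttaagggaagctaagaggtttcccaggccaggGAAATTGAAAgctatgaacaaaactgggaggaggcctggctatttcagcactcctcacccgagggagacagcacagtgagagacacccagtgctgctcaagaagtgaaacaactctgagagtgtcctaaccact
Il12b: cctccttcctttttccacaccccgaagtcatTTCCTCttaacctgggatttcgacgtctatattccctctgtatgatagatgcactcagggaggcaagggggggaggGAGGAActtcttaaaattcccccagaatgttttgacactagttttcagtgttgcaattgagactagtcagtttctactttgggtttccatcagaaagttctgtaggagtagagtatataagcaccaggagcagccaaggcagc
Ccl17: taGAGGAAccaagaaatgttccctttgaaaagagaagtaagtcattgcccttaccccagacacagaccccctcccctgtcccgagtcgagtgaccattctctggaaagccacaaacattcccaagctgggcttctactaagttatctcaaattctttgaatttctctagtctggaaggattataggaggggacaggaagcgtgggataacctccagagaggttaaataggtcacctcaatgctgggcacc
The response element core ended 37 bases before the start in Serpinb9, 40 bases before it in Apol7c and 125 bases before it in Ifi205. It was present in 2.977% of all 32851 promoters of the table and in 3 of the 38 promoters of genes higher in Fscn1 than in Cd209a cells, namely Apol7c, Serpinb9 and Tm4sf1. GAGGAA was present in 23.25% of all promoters and in 13 of those 38, the kappa B core (GGG, any 2 bases, TTTCC) in 1.412% and 1 of 38, and the AP-1 core TGANTCA in 6.749% and 2 of 38. A match describes the letters only.

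These subset calls rested on few cells and depended on the members. Without the 22 Xist members, 24 of the 93 Fscn1 over Cd209a calls, 5 of the 10 Xcr1 or Clec9a over Cd209a calls and 15 of the 78 Fscn1 over Xcr1 or Clec9a calls were kept, and Ccr7 over Cd209a cells had an edgeR adjusted p of 0.13. With 3 or more of the 6 genes required, 0, 0 and 1 were kept, and with 5 further genes required at 0 UMIs 0, 0 and 4. Alox5ap, Il1b, Gm2a, Cd200, Serpinb6b, Il12b and Ccr2 kept their Fscn1 over Cd209a call in each of the 4 fits that left out 1 library, whereas Ccr7 lost it without NB, without 10 M and without 18 M (edgeR adjusted p up to 0.134). Leaving out NB or 18 M leaves 1 Fscn1 sum, which is then assumed to vary like the other subsets. Serpinb9 lost it without NB, Relb and Anxa3 without NB and without 10 M, Fabp5 without 10 M and Cacnb3 without 18 M (edgeR adjusted p up to 0.273). Cd81, Cxcl1, Ifi205 and Il12b kept the Xcr1 or Clec9a over Cd209a call in all 4. Of the other 6, each lost it without 10 M, Ereg, Tssc4 and Slc25a20 also without 18 M, and Cst3 and Slc25a20 also without 2 M.

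Compared with the nearest other myeloid cells, the dendritic cells were higher in maturation genes and lower in genes of microbial sensing. Monocytes (217 cells) were taken by Csf1r with 2 or more of Ly6c2, Fcgr1, Ace, Treml4, Fn1 and Ccr2, and C1q macrophages (43 cells in NB, 10 M and 18 M) by the C1q genes. In dendritic cells against monocytes, 483 of 5534 genes were higher (8.73%) and 576 lower (10.4%). In dendritic cells against C1q macrophages, 391 were higher (7.07%) and 460 lower (8.31%). Of the maturation list, 16 of 31 tested genes were higher than in monocytes and 14 of 31 higher than in C1q macrophages, with none lower than in either type. The maturation gene Fscn1 was in the rule for members, of whom 34 of 131 held it, but not in the rules for the other types. Higher maturation genes may therefore follow in part from how members were chosen, which was not tested.

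Ccr7 had 1495, 475, 794 and 869 CPM in the dendritic cells, against 28.4, 0, 51.9 and 30.3 CPM in monocytes. Every dendritic cell sum was above every monocyte sum (4.94 ± 0.43, edgeR adjusted p = 8.8e-05). Ccl17 had 90.9, 28.8, 84.2 and 536 CPM, against 0, 0, 0 and 7.85 CPM in monocytes (6.32 ± 0.45, edgeR adjusted p = 8.8e-05), with no UMI in C1q macrophages. Ccl22 had 503, 907, 250 and 1115 CPM, against 9.46, 0, 29.9 and 6.72 CPM in monocytes (5.41 ± 0.67, edgeR adjusted p = 0.000376) and 101, 13.5 and 54.3 CPM in C1q macrophages (3.47 ± 0.75, edgeR adjusted p = 0.00967; 0.0621 without 18 M). No Ccl17 or Ccl22 sum of the dendritic cells overlapped a monocyte sum.

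Kit, the stem cell factor receptor, was even across ages: 96.5, 120, 99.3 and 91.3 CPM in dendritic cells, against 0, 0, 1.57 and 6.72 CPM in monocytes (4.83 ± 0.53, edgeR adjusted p = 0.000183). H2-Oa, the subunit of the peptide-loading modulator H2-O, had 163, 81.6, 60.2 and 42.3 CPM, against 0, 7.67, 0 and 0 CPM. Of the class II list, 9 of 10 tested genes were higher than in monocytes and Ctss was lower (-1.02 ± 0.24), but a member had to hold an H2-Aa UMI and a monocyte did not, so nothing is read from that count. Adam23, a catalytically inactive metalloprotease family member, had 59.4, 4.801, 12.03 and 40.6 CPM in dendritic cells and no UMI in monocytes, 61 UMIs against 0. It was not called without NB or without 18 M.

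Costimulatory genes were higher than in monocytes, and transcription factors moved both ways. Cd83 had 516, 576, 653 and 692 CPM in dendritic cells, against 173, 353, 212 and 305 CPM in monocytes, without overlap (1.32 ± 0.27, edgeR adjusted p = 0.0067). Cd86 was higher by 1.68 ± 0.37 and Cd40 by 1.04 ± 0.28; Cd86 lost its call without NB, and Cd40 without NB, without 2 M and without 18 M. Of 21 transcription factors tested, 5 were higher than in monocytes (Id2, Irf4, Nr4a3, Runx3 and Tcf4) and 5 lower (Cebpb, Ets2, Nr4a1, Spi1 and Zeb2), with a median of 0.05. Over all genes 8.73% were higher and 10.4% lower. Id2, which conventional dendritic cells need, had 1208, 1143, 785 and 1724 CPM, against 620, 682, 409 and 507 CPM (1.12 ± 0.19, edgeR adjusted p = 0.00257). Runx3 was higher by 2.29 ± 0.33 and Irf4, the factor of type 2 cells, by 2.12 ± 0.47, which was lost without 18 M. Against C1q macrophages neither edgeR nor DESeq2 called Cd83, Cd86, Cd40, Id2, Runx3 or Irf4, of which Cd40 and Id2 had an unadjusted p under 0.05.

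Genes of microbial sensing were lower. Of 13 pattern receptor genes tested, 8 were lower than in monocytes and 6 lower than in C1q macrophages, against 10.4% and 8.31% over all genes. Tlr2, the lipopeptide receptor, had 53.8, 14.4, 27.1 and 38.9 CPM in dendritic cells, against 270, 307, 371 and 367 CPM in monocytes and 523, 297 and 439 CPM in C1q macrophages. It fell by 3.25 ± 0.31 and by 3.46 ± 0.34 on the log2 scale (edgeR adjusted p = 0.000104 and 0.000164). Trem2, a lipid receptor of macrophages, had no UMI in the 131 dendritic cells, against 59.1, 30.7, 50.3 and 35.9 CPM in monocytes and 151, 229 and 148 CPM in C1q macrophages. Pf4, a chemokine of platelets and tissue macrophages, had 1.86, 0, 0 and 5.07 CPM, against 1258, 1281 and 1787 CPM in C1q macrophages (-8.92 ± 0.55, edgeR adjusted p = 1.34e-05). Conversely, Arap2, a regulator of Arf6, had 236, 245, 286 and 213 CPM in dendritic cells and no UMI in C1q macrophages. Of the 1059 calls against monocytes 941 were kept without the 10 members with vascular or fibroblast UMIs and 949 without the Xist members, and of the 851 against C1q macrophages 828 and 766. Other settings kept fewer. With 5 further genes at 0 UMIs, 228 of the calls against monocytes and 585 of those against C1q macrophages were kept. Without the upper limits on genes and UMIs, 703 and 495 were kept. Leaving out 1 library lowered the calls against monocytes to 563 without NB and 600 without 18 M, and against C1q macrophages to 430 without NB and 434 without 18 M.

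**Figure D3:**
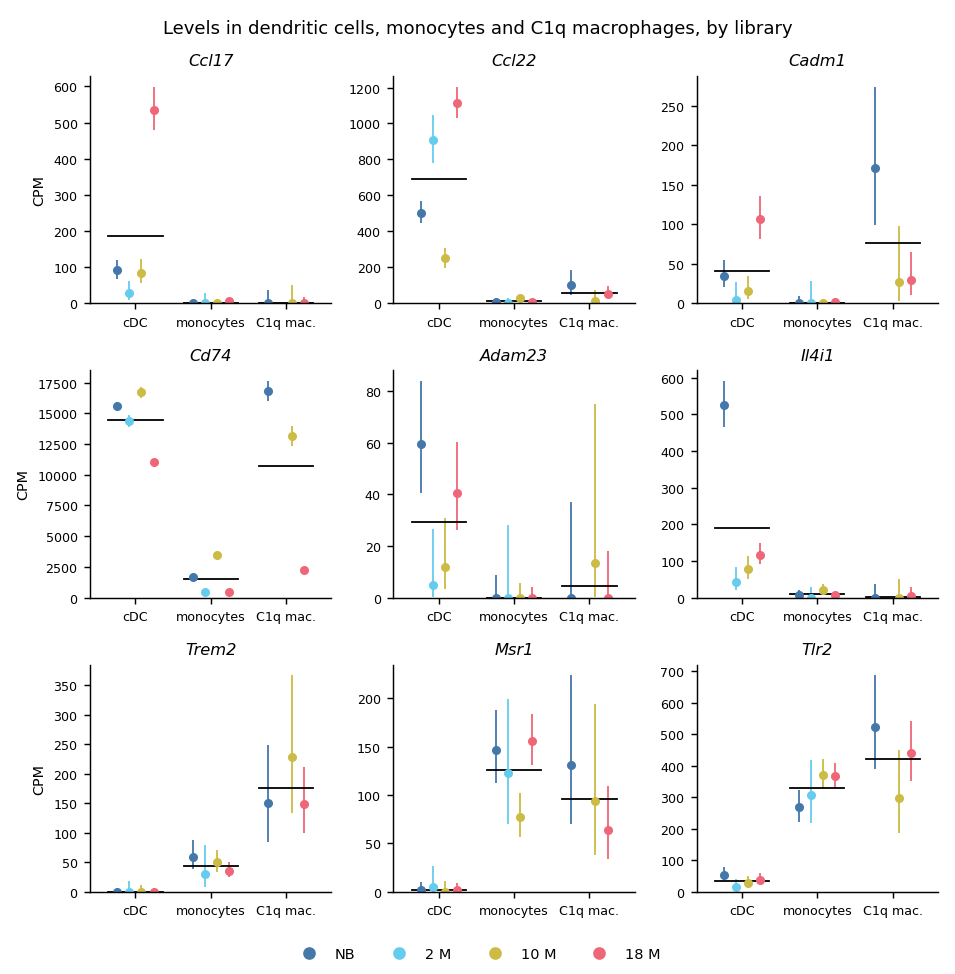
Levels of 9 genes (CPM) in conventional dendritic cells, monocytes and C1q macrophages. Each point is 1 library, bars are exact Poisson 95% intervals and black lines are means: Ccl17 and Ccl22 sit above both other types, and Tlr2, Trem2 and Msr1 below them.

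Between ages no test is possible with 1 library each, so ratios of the library labelled 18 M to 2 M are given with exact binomial 95% intervals for counting error only, over 48 cells against 14. Among 6691 genes with at least 10 UMIs, 3491 were higher in 18 M (52.2%) and 3200 lower (47.8%). At least a 2-fold difference was seen upwards in 1032 (15.4%) and downwards in 613 (9.16%), and the median log2 ratio was 0.04. Of the type 1 list, 7 of 13 genes were higher in NB than in 2 M (median log2 ratio 0.03). In 10 M 3 of 10 were higher than in 2 M (median -0.61). In 18 M 14 of 16 genes were higher than in 2 M and 10 at least 2-fold higher, with a median log2 ratio of 1.37. Leaving out Xcr1 and Clec9a, which chose members, 12 of 14 were higher. Within the Xcr1 or Clec9a cells alone, 14 of 15 were higher with a median of 1.49, against -0.06 over all genes. This count is of the whole list, with Xcr1 and Clec9a, by which these cells were chosen. Without the 10 members with vascular or fibroblast UMIs 15 of 16 were higher (median 1.48), and without the Xist members 15 of 16 (median 2.17). These repeats also took the whole list, without leaving out Xcr1 and Clec9a.

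Cadm1, an adhesion molecule of type 1 cells, had 107 CPM in 18 M, against 4.801 CPM in 2 M, beside 35.3 CPM at NB and 15.04 CPM at 10 M. The ratio of 18 M to 2 M was 22.2 (3.84 to 890), from 63 UMIs against 1. Irf8 had 191, 19.2, 87.2 and 152 CPM from NB to 18 M, a ratio of 7.93 (2.99 to 29.7) for 18 M over 2 M, so the 2 M library was the lowest. Itgae, the integrin CD103 chain, had 96.4 CPM in 18 M and no UMI in 2 M or 10 M, at least 6.69-fold higher than 2 M. Cd207 (langerin) was at least 3.17-fold higher, from 5 cells. Naaa, a lysosomal amidase, had 137 CPM in 18 M and 38.4 CPM in 2 M (3.57, 1.73 to 8.54). Xcr1 itself was close to even at 245 CPM in 18 M and 187 CPM in 2 M (1.31, 0.914 to 1.92).

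**Figure D4:**
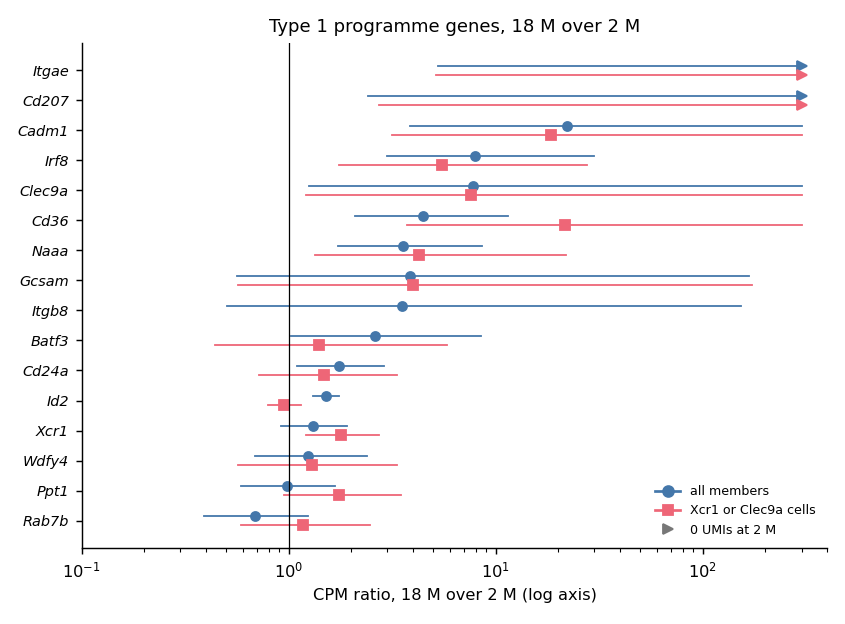
Ratio of 18 M to 2 M (CPM, log axis) for type 1 genes in all members and in Xcr1 or Clec9a cells. Lines are 95% intervals for counting error, clipped at 300, and arrows mark genes with 0 UMIs in 2 M: Cadm1 and Irf8 lie above 1 with their intervals, and Xcr1 does not.

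MHC class II genes went the other way, with 8 of 11 lower in 18 M and a median log2 ratio of -0.41, leaving out H2-Aa, which chose members. H2-Ab1 had 4687 CPM in 18 M and 6697 CPM in 2 M (0.700, 0.656 to 0.747), beside 6117 CPM in NB and 7095 CPM in 10 M. Cd74, the invariant chain, had 11042 CPM in 18 M and 14368 CPM in 2 M (0.768, 0.736 to 0.803). The 18 M library was the lowest of the 4 for both. The vascular and fibroblast UMIs given above were also highest there. Without the members that carried them 8 of 11 genes were lower (median -0.27), and within the Xcr1 or Clec9a cells 7 of 9 (median -0.32). Within the Cd209a cells 6 of 8 were lower (median -0.28), but 4 of 7 were higher there without the Xist members (median 0.06).

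Ccl17 and Il12b were higher in 18 M than in 2 M. Ccl17 had 536 CPM in 18 M and 28.8 CPM in 2 M (18.6, 8.46 to 51.1), in 17 of 48 and 1 of 14 cells. Il12b had 338 CPM and 24.0 CPM (14.1, 5.94 to 43.9), with 86 of the 200 UMIs of 18 M in 1 cell, and the NB library had more than both at 714 CPM. Cxcl10, the interferon-induced ligand of Cxcr3, was the lowest ratio by the naming rule: 40.6 CPM in 18 M and 686 CPM in 2 M (0.0591, 0.0367 to 0.0915), beside 366 CPM at NB and 15.04 CPM at 10 M. In 2 M 129 of its 143 UMIs were in 1 cell. Below it came Gpr141, Irg1, Klrk1, Clec4d, Mefv, Csf1r, Aig1, PISD and Psat1, at ratios of 0.104 to 0.187. Klrk1, Aig1 and PISD were also lower in 18 M than in 2 M in T cells and in B cells. Gpr141, Irg1, Clec4d, Mefv, Csf1r and Psat1 were higher in 18 M in both of those types. The highest ratios belonged to Xist, Eln, Sftpc, Hba-a1, Col3a1, Actn1, Cacnb3, Sema6d, Wfdc2 and Hbb-bs, most of them genes of stromal, epithelial or red cells. Of their UMIs in 18 M, 1998 of 3658 for Sftpc, 1878 of 2157 for Hbb-bs, 482 of 782 for Eln and 147 of 159 for Col3a1 were in 1 cell each. Except for Sema6d, the genes of highest ratio were also higher in 18 M than in 2 M in both T cells and B cells. In T cells Sftpc stood at 1692 CPM in 18 M and 64.5 CPM in 2 M.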

How the data were processed

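The deposited files hold UMI counts per gene and cell barcode for 4 lung libraries. By the processing notes, the authors made these counts with Cell Ranger 3.0.2 on mm10, and the study's later steps used Seurat 2.0. The headers of the deposited counts name another Cell Ranger version, and which is right was not settled. Replicates are not stated. Deposited barcodes (34037) were kept with more than 200 and fewer than 5000 genes, no more than 25000 UMIs and less than 8% of UMIs from mitochondria. Kept cells had a median of 4152 UMIs and members 12418, which limits precision for genes of few UMIs. Possible doublets were kept. The members and gene lists were chosen with earlier results of these data known.

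Counts were summed per library and subset or type (at least 3 cells) and tested with edgeR 4.0.16 in R 4.3.3 (TMM, default expression filter, library as block, quasi-likelihood F test, two-sided). DESeq2 1.42.0 was an alternative. Same-numbered sums are cells of 1 library, hence of the same tissue, which is the source of the pairing. The standard error is the log2 fold change over the root of F. Intervals (95%) are exact Poisson, conditional binomial or Clopper-Pearson from Python 3.11.15 with numpy 2.4.6, scipy 1.17.1 and pandas 2.3.3, and figures used matplotlib 3.10.9. A fold against 0 UMIs is a bound at a floor of 3 UMIs over the group. Scripts were tested on simulated data.

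Named genes were the 8 highest and 8 lowest called fold changes per subset contrast (6 and 6 per type contrast) with at least 30 UMIs and a UMI in every library of the higher group, the 10 top and 10 bottom 18 M to 2 M ratios with at least 20 UMIs in at least 8 cells and an interval that leaves out 1, and genes of the lists; the text describes a selection of these, and Il1b, Gm2a, Fabp5, Ereg and Cxcl1, outside the rule, were singled out after their values were seen. Clec7a, Ighm and Trac were not analysed here. Alternatives covered normalization, filter, block, cell limits, the members' rule and each left-out library. Repeats without members holding vascular or fibroblast UMIs or Xist UMIs were chosen after seeing the data.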

Additional observations from a re-analysis of the deposited data

Results flagged for a closer look

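Above the upper limits on genes or UMIs, 10 barcodes met the rule for conventional dendritic cells: 3, 0, 1 and 6 from NB to 18 M. They were outside every comparison. With them admitted, the Xcr1 or Clec9a over Cd209a calls numbered 3 and the calls against C1q macrophages 520.

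Ccl22 went opposite ways in the 2 libraries that had enough Fscn1 cells. The ratio of Fscn1 to Cd209a cells was 9.46 in 18 M (95% interval for counting error 6.998 to 13.1) and 0.392 in NB (0.251 to 0.611), or 20.3 and 0.458 without the members with vascular or fibroblast UMIs. Without the Xist members, all of them in 18 M, it was 4.33 in 18 M. In NB 36 of the 41 Ccl22 UMIs of the Fscn1 cells were in 1 cell, while in 18 M 5 of 10 cells held 450 UMIs.

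The class II genes H2-Ab1 and H2-Eb1 did so in the other direction. The ratio of Fscn1 to Cd209a cells for H2-Ab1 was 0.259 in 18 M and 1.21 in NB, and for H2-Eb1 0.319 in 18 M and 1.503 in NB. Without the members with vascular or fibroblast UMIs, the H2-Ab1 ratios were 0.392 and 1.35 and the H2-Eb1 ratios 0.523 and 1.67. Without the Xist members, the 18 M ratio was 0.0614 for H2-Ab1 and 0.123 for H2-Eb1. The difference between the libraries was not tested for any of the 3 genes, with 1 library at each age.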

How the results depend on the processing

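Each count of calls was repeated under the alternatives, and the cause of a shift was not tested unless named. The 93 Fscn1 over Cd209a calls became 59 with DESeq2, 333 without the filter on low counts (13082 genes tested), 59 with at least 5 H2-Aa UMIs, 31 without Xist members, 1 with 5 further genes at 0 UMIs and 0 with 3 or more rule genes, and 35 to 158 without 1 library (35 without 10 M, 158 without NB). The 10 Xcr1 or Clec9a over Cd209a calls became 100 without the filter, 3 without upper limits, 5 without Xist members and 0 with 3 or more rule genes or with 5 further genes at 0 UMIs, and 4 to 57 without 1 library (4 without 10 M, 15 without 18 M, 57 without NB). The 78 Fscn1 over Xcr1 or Clec9a calls became 40 with DESeq2, 333 without the filter, 25 with at least 5 H2-Aa UMIs, 17 without Xist members, 41 without members with vascular or fibroblast UMIs, 7 with 5 further genes at 0 UMIs and 2 with 3 or more rule genes, and 31 to 169 without 1 library. The calls against monocytes fell to 243 with 5 further genes at 0 UMIs and ranged over 563 to 816 without 1 library. Those against C1q macrophages fell to 520 without upper limits and ranged over 430 to 747.

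Without the library as a replicate block the calls numbered 81, 0 and 69 between the subsets in the same order and 937 and 885 against monocytes and C1q macrophages. The 10 Xcr1 or Clec9a over Cd209a calls were all lost (197 genes at an unadjusted p under 0.05), and the block kept 60 of 93 and 46 of 78 calls in common with the fit without it.

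Requiring 3 or more rule genes gave member shares of 0.267%, 0.0903%, 0.115% and 0.275% from NB to 18 M. With 5 further genes at 0 UMIs the share was 0.329% in NB and 0.215% in 18 M, and without Xist members 0.310% in 18 M. The Fscn1 share of members became 23.5% in NB, 0% in 2 M and 10 M and 8.70% in 18 M with 3 or more rule genes. It was 9.76% in 18 M with at least 5 H2-Aa UMIs, 5.56% in 18 M with 5 further genes at 0 UMIs, 0% in 2 M with at least 5 H2-Aa UMIs or at least 2 Fscn1 UMIs, and 0% in 2 M and 10 M without the members with vascular or fibroblast UMIs or when members were thinned to 1000 UMIs. In 18 M the Xcr1 or Clec9a share was 52.2% with 3 or more rule genes and 50% with 5 further genes at 0 UMIs. Thinning gave Xcr1 or Clec9a shares of 4.76%, 3.70% and 14.6% and Cd209a shares of 2.38%, 3.70% and 8.33% in NB, 10 M and 18 M.

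The genes at least 2-fold higher in 18 M than in 2 M numbered 2494 without upper limits, 651 with 3 or more rule genes, 558 with 5 further genes at 0 UMIs, 475 within Xcr1 or Clec9a cells and 516 within Cd209a cells, where 319 were at least 2-fold lower; fewer cells leave fewer genes above 10 UMIs. Signs were followed for the named genes and the called genes of the lists. Among these, Areg (4.22) and Il12b (-2.25) turned in Fscn1 over Cd209a cells with 5 further genes at 0 UMIs. Sparc (-2.20) turned there with at least 2 Fscn1 UMIs. In Fscn1 over Xcr1 or Clec9a cells, Ccl17 turned (-0.28 to 6.33 without 1 library, negative without 18 M), as did Cxcl3 (2.91) with 3 or more rule genes. Itgam (3.58) turned against C1q macrophages without the filter. Over all calls, with 5 further genes at 0 UMIs, the sign turned in 3 of 93 Fscn1 over Cd209a calls. It also turned there in 1 of 10 Xcr1 or Clec9a over Cd209a calls and 28 of 1059 calls against monocytes. Without the members with vascular or fibroblast UMIs, 6 of the calls against monocytes turned. Of the log2 ratios of 18 M to 2 M that were followed, Cd36 (-0.28) turned with 5 further genes at 0 UMIs. Id2 (-0.075) and Cd14 (0.65) turned within Xcr1 or Clec9a cells, and Cd74 (0.11) within Cd209a cells. Depth limits all values from sums of 3 to 16 cells.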

Other observations

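Lysosomal proteases were lower in the dendritic cells than in both neighbouring types. Of 16 endolysosome genes tested, 8 were lower and 2 higher than in monocytes (10.4% and 8.73% over all genes), and 10 lower and 1 higher than in C1q macrophages (8.31% and 7.07% over all genes). Ctsb, the protease cathepsin B, had 173, 197, 150 and 191 CPM in dendritic cells from NB to 18 M, against 622, 805, 729 and 613 CPM in monocytes and 1611, 1752 and 2522 CPM in C1q macrophages of NB, 10 M and 18 M. No sums overlapped, and the level fell by 1.94 ± 0.19 and by 3.49 ± 0.21 on the log2 scale (edgeR adjusted p = 0.000104 and 7.65e-06). Ctsd, cathepsin D, had 206, 86.4, 81.2 and 184 CPM, against 811, 1173, 1355 and 980 CPM in monocytes. Both genes kept their calls in each fit that left out 1 library.

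Genes that load MHC class I moved upwards in part. Of 15 tested, 6 were higher than in monocytes (Calr, Psmb8, Psmb9, Psme1, Psme2 and Tap1) and 4 higher than in C1q macrophages, against 8.73% and 7.07% over all genes, with none lower. Calr and Psme2 kept the call against monocytes in 1 of 4 fits that left out 1 library. Tap1, a subunit of the peptide transporter, had 167, 154, 165 and 130 CPM in dendritic cells, against 52.0, 46.0, 56.6 and 25.8 CPM in monocytes, without overlap (1.84 ± 0.22, edgeR adjusted p = 0.000339). Ccl3, an inflammatory chemokine, went the other way at 92.8, 163, 187 and 110 CPM, against 1980, 1741, 1546 and 2362 CPM in monocytes (-3.76 ± 0.38, edgeR adjusted p = 0.000112).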
